A study of Rattus norvegicus with 32 samples.

Results

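Gene expression in C6 cells given angiotensin II (Ang II) in the presence of PD123319 was compared with that in untreated Control cells after 6 h. The comparison rests on 8 of the 32 arrays of the series, namely the 4 Ang II+PD123319 arrays and the 4 Control arrays at 6 h, and the arrays were chosen by these labels alone. C6 is an established rat glioma line, grown to confluence in medium with serum. Control cells received no treatment, while Ang II+PD123319 cells received PD123319 at 10 µM 30 min before Ang II at 100 nM, and both groups were collected at 6 h. No array analysed here had PD123319 alone, so that what the peptide did and what the antagonist did cannot be told apart in Ang II+PD123319 x Control. The labels do not say that the 4 replicates of a group were separate cultures of the line, so the p-values measure the spread between these samples, which may be technical.

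Ang II is the main effector peptide of the renin-angiotensin system and acts through the receptors AT1 and AT2, both coupled to G proteins. AT1 is the receptor known for vasoconstriction, growth signalling and the induction of matrix and growth factor genes, whereas AT2 is often described as its counterpart. PD123319 is an antagonist with selectivity for AT2, and it leaves AT1 open to the peptide. The receptor genes themselves gave no usable signal on these arrays, although the study measured Agtr1 and Agtr2 by qPCR. The probes of Agtr1a, Agtr1b and Agtr2 were well above background on 0 of the 16 arrays at 6 h, and so was that of Mas1, the receptor for angiotensin-(1-7). Agt, the precursor of the peptide, was above background on 11 of the 16 arrays. Of the 14 genes listed for the renin-angiotensin system, 6 could be tested and 0 were past the limits given below.

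Every one of the 4 slides at 6 h held a single array of each of the 4 groups, and the replicate number is that of the slide. On every slide Control took position 1, while Ang II+PD123319 took position 4, so that position and treatment cannot be told apart. Replicates 1 to 3 were scanned together and replicate 4 in another scan. On the 8 arrays, 65.7% to 79.7% of the spots were well above background. The median absolute difference between the arrays of a slide was 0.18, 0.23, 0.15 and 0.24 in replicates 1 to 4, on the log2 scale that is used for all levels and changes here. The Ang II+PD123319 array of replicate 4 had the most outlier spots of the 8 arrays (2.07%). Before normalization its 75th percentile was 9.5, against 10.1 to 10.19 on the other arrays of its slide. In that pair 206 genes were higher and 536 lower by at least 1. The numbers were 163 and 252, 260 and 378, and 141 and 175 in replicates 1 to 3. This array was not left out apart from its slide.

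The first limit is a fold change above 1.2 or below 0.8, as used for other comparisons of the series. The second is an unadjusted limma p under 0.05, whereas the study itself used t-tests. Of 16441 genes tested, 2212 were past both limits, and this is 13.5% of the genes. Among these, 1162 (7.07%) were higher and 1050 (6.39%) lower in Ang II+PD123319 than in Control. After Benjamini-Hochberg adjustment of the limma p-values, 227 genes (1.38%) had an adjusted p under 0.05, of which 88 were higher and 139 lower. This number was 0 with the paired t-test, without the replicate block or with the 8 arrays alone, and 5 without a filter on dim probes. The changes were small. Among the genes past both limits, 16 were higher and 95 lower by at least 1 on the log2 scale, and the median size of a change was 0.38 among the higher and 0.52 among the lower genes. The adjusted calls needed replicates 2 and 4, since 1 call was made without replicate 2 and 0 without replicate 4, which leaves the slides of a single scan. All 227 genes had an unadjusted limma p under 0.05 in the same direction when any replicate was left out. Of them 226 had the same sign on each of the 4 slides, the other having a gap in its values. Because the 227 genes were selected by their p-values on these same arrays, neither count is independent support for them. Calls were more frequent among dim genes, with 21.9% past both limits among the 4111 dimmest genes and 6.72% among the 4110 brightest.

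**Figure D1:**
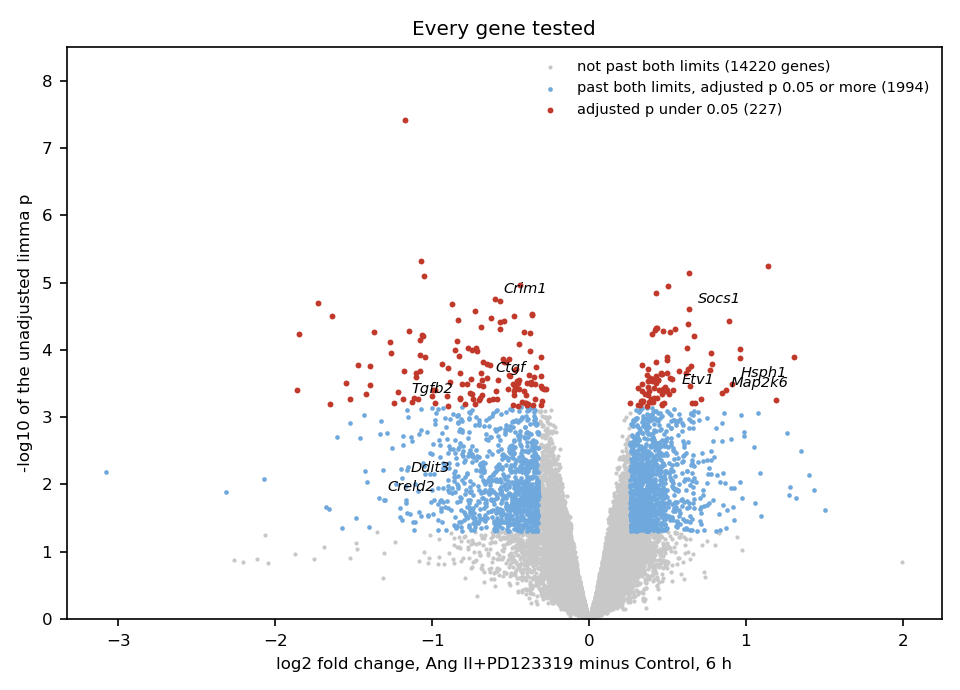
Each point is a gene at 6 h, by its log2 fold change in Ang II+PD123319 x Control and by the -log10 of its unadjusted limma p. The 227 genes with an adjusted p under 0.05 lie on both sides, 88 higher and 139 lower, and members of the stress lists such as Ddit3 and Creld2 have large changes with weaker p-values.

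The genes with the lowest p-values that fell included Crim1, Olig1, Aqp2, Tmem242, Ppcdc, Krtap10l2 and Atoh7, and those that rose Socs1 and Pard6g. Crim1, which encodes a membrane protein that binds bone morphogenetic proteins, gave 11.79, 11.04, 11.75 and 10.79 on the Control arrays and 11.39, 10.38, 10.90 and 10.28 with treatment, lower on every slide although the groups overlap because the slides differ. Its log2 fold change was -0.60 (SE 0.09, limma adjusted p = 0.0249), and its probe lies at chr6:1140817-1140876 of the rn4 assembly.

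Socs1, a suppressor of cytokine signalling that binds Janus kinases, rose. Its Control arrays gave 6.42, 5.66, 6.49 and 5.55 and its Ang II+PD123319 arrays 6.93, 6.64, 6.86 and 6.25, which is higher on every slide with overlapping groups. The probe lies at chr10:4820384-4820443, and the log2 fold change was 0.64 (SE 0.10, adjusted p = 0.0249), a 1.56-fold higher level. Pard6g, which encodes a cell polarity protein, rose by 0.44 with the same adjusted p. Aqp2, the vasopressin-regulated water channel known from the kidney, went from 6.03, 6.6, 6.49 and 6.38 to 5.50, 6.00, 5.73 and 5.99, with no overlap between the groups, which held for 2.04% of all genes in either direction, and a log2 fold change of -0.57. Tmem242, a mitochondrial membrane protein gene, showed a similarly even change of -0.36 on the 4 slides, from between 10.89 and 11.05 to between 10.55 and 10.72. Olig1, a transcription factor of the oligodendrocyte lineage, changed by -0.48, and Ppcdc, an enzyme of coenzyme A synthesis, by -0.57. Krtap10l2 and Atoh7 changed by -0.57 and -0.62, and all of the genes of this paragraph had the adjusted p of 0.0249 in the limma fit.

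**Figure D2:**
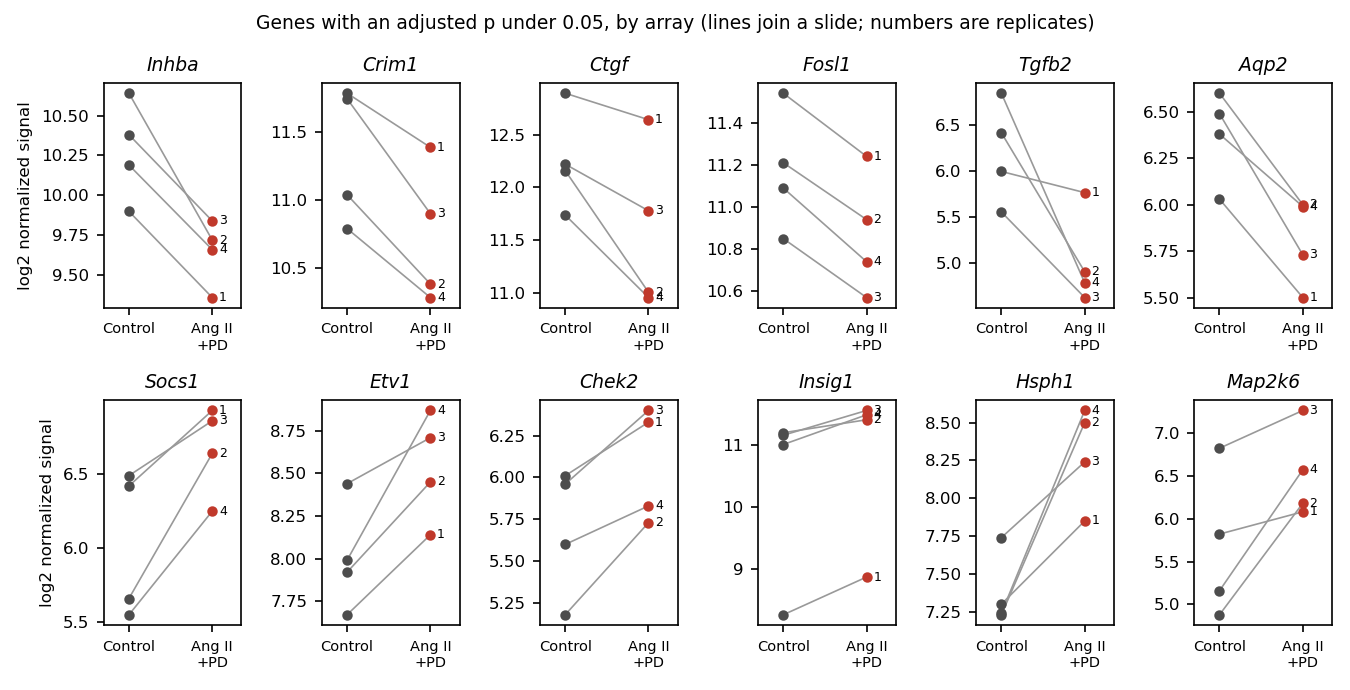
The log2 normalized signal of 12 genes with an adjusted p under 0.05 on the 4 Control arrays (grey) and the 4 Ang II+PD123319 arrays (red), with a line for each slide. Every line of a gene runs the same way, while replicate 1 lies far below the other slides for Insig1.

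Among genes with a symbol, a good signal and the same direction on all slides, the largest rises were those of Arntl2, Clspn, Hsph1, Ppl, Map2k6, Slc2a3, Unc13d, Afap1l2, Pcdh24 and Kcna1, with log2 fold changes between 0.76 and 0.97. Of these genes, Hsph1 and Map2k6 had an adjusted p under 0.05. Without replicates 2 and 4, a setting chosen after seeing the data, Unc13d, Kcna1, Slc2a3, Clspn, Ppl and Pcdh24 stood between 0.135 and 0.491. In the same setting Map2k6, Hsph1, Arntl2 and Afap1l2 stood at 0.35, 0.53, 0.61 and 0.98. Arntl2, a partner of the CLOCK protein, changed by 0.97 (adjusted p = 0.0522). Slc2a3, the neuronal type glucose transporter GLUT3, stood at 5.31, 5.27, 5.48 and 5.34 on the Control arrays and at 5.96, 6.35, 5.58 and 6.74 on the treated ones. The groups do not overlap, but the rise was 0.10 to 1.40 on the single slides and the adjusted p was 0.0568. The largest falls were those of Or6z5, Ncf4, Ddit3, Klf15, Tgfb2, B4galnt1, Pygm, Tmem141, Ccdc13 and Lrrc10b, between -1.52 and -1.10. Without replicates 2 and 4, Ddit3, Ccdc13 and Klf15 stood at -0.18, -0.235 and -0.37, and the others between -1.746 and -0.573. Pygm, the muscle type glycogen phosphorylase, fell by 1.13 (SE 0.24, adjusted p = 0.0481) and Lrrc10b by 1.10 (SE 0.21, adjusted p = 0.0396), both without overlap between the groups.

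Genes of transforming growth factor beta signalling, a pathway known to act beside Ang II in fibrosis, went both ways. Of 21 genes tested, 3 were past both limits and higher and 4 lower, which is 33.3% against 13.5% of all genes, with a median log2 fold change of 0.01 against 0.01. Inhba, the activin A subunit, is the clearest of them. It gave 9.90, 10.64, 10.38 and 10.19 on the Control arrays and 9.36, 9.72, 9.84 and 9.66 with treatment, without overlap, and its log2 fold change was -0.63 (SE 0.12, adjusted p = 0.0372). Tgfbi, an extracellular matrix protein induced by the pathway, rose by 0.46 (SE 0.10, adjusted p = 0.0492). For the ligand Tgfb2 the gene-level value was -1.18 (SE 0.25, adjusted p = 0.0468), but its 2 probes differed. In limma fits of each probe on its own, that at chr13:102718952-102719010 gave -0.32 (unadjusted p = 0.0767) and that at chr13:102801650-102801709 gave -2.05 (unadjusted p = 0.00032). The receptor Tgfbr1 changed by -0.43 and the target Id1 by 0.38, both past the limits with adjusted p-values of 0.0898 and 0.0892.

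Ctgf, the matricellular protein CCN2 and a shared target of YAP-TEAD, transforming growth factor beta and Ang II in other tissues, fell. Its level was 12.89, 12.16, 12.22 and 11.74 on the Control arrays and 12.64, 11.01, 11.78 and 10.96 on the Ang II+PD123319 arrays, lower on every slide, with differences between -0.25 in replicate 1 and -1.15 in replicate 2. The probe lies at chr1:21327574-21327633, and the log2 fold change was -0.65 (SE 0.13, adjusted p = 0.0406). Of the 18 genes of the YAP-TEAD and Hippo list, Crim1 and Ctgf were the 2 past the limits, which is 11.1% beside 13.5% of all genes, and the median of the list was -0.02. Fosl1, an AP-1 subunit, changed by -0.30 (adjusted p = 0.0481) while Srf, the serum response factor, stood at -0.26 (adjusted p = 0.0604), and both were within the fold limit of 0.8. Of 21 immediate early transcription factors, Klf10 and Maff were past both limits (9.52% beside 13.5%), at 0.43 and 0.40. Klf10 differed by -0.07, 0.85, 0.15 and 0.78 in replicates 1 to 4 and stood at 0.042 without replicates 2 and 4, while Maff was at -0.15 in replicate 3.

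The largest group changes were in genes of the endoplasmic reticulum (ER) stress response and the integrated stress response. In this pathway the kinase PERK and its relatives raise the translation of ATF4, which with CHOP drives genes of amino acid synthesis and transfer RNA charging, while ATF6 and XBP1 drive ER chaperones. Of 33 genes tested in the ATF4-CHOP list, 22 (66.7%) were past both limits and lower in Ang II+PD123319 and 0 higher, with a median of -0.47 against 0.01 over all genes. Of 27 ER chaperone genes, 15 (55.6%) were lower and 0 higher, with a median of -0.49. Of the genes of both lists, Aars, the alanyl transfer RNA synthetase, was the 1 with an adjusted p under 0.05. Its level was 12.04, 13.30, 12.64 and 13.19 in Control and 11.80, 12.76, 12.24 and 12.48 with treatment (-0.47, adjusted p = 0.0389).

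The largest differences were on 2 of the 4 slides. In replicates 2 and 4, 30 and 31 of the 33 ATF4-CHOP genes and all 27 ER chaperones were lower. In replicate 3 this held for 29 ATF4-CHOP genes, by less, and for 11 ER chaperones, and in replicate 1 for 6 and 8. Ddit3, which encodes CHOP and is probed at chr7:67252505-67252564 of rn4, stood at 10.21, 15.03, 10.42 and 14.87 on the Control arrays of replicates 1 to 4 and at 10.04, 12.83, 10.25 and 12.65 on the Ang II+PD123319 arrays. In replicates 2 and 4 both groups were several log2 units above replicates 1 and 3, and the differences were -2.20 and -2.22, against -0.18 on each of the other slides. Hspa5, the chaperone BiP, had 13.28, 15.90, 13.40 and 15.59 in Control and 13.47, 14.03, 13.48 and 13.87 with treatment, and Creld2, an ER-resident chaperone, had 9.86, 13.40, 9.82 and 13.18 against 10.00, 10.63, 9.76 and 10.52. The log2 fold changes over the 4 slides were -1.19 for Ddit3 (adjusted p = 0.103), -0.83 for Hspa5 (0.187) and -1.34 for Creld2 (0.134). Trib3, an inhibitor of AKT and target of ATF4, was lower on 3 slides, replicate 3 included, with 7.59, 12.43, 9.39 and 12.02 in Control and 7.64, 11.57, 8.77 and 11.08 with treatment (-0.60, adjusted p = 0.059). Atf4 itself, whose control is mostly translational, stood at -0.19 (adjusted p = 0.219).

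Over the whole ATF4-CHOP list, the mean level on the Control arrays was 9.27, 11.35, 9.86 and 11.24 in replicates 1 to 4. The 3 treated arrays of each slide lay at 9.30 to 9.43, 10.48 to 10.57, 9.69 to 9.76 and 10.23 to 10.47, in the same order. The Control array was therefore above every treated array in replicates 2, 3 and 4, by little in replicate 3. For the ER chaperones the Control arrays gave 9.21, 11.24, 9.37 and 11.20, and those of Ang II+PD123319 gave 9.43, 9.93, 9.39 and 10.14. When replicates 2 and 4 were left out, a setting chosen after seeing the data, 0 of the 22 and 0 of the 15 genes remained past the limits on the lower side, Hspa5 stood at 0.14 and Ddit3 at -0.18. Aars was then at -0.321 (limma unadjusted p = 0.0136), within the fold limit. Without replicate 2 alone, 4 and 1 genes were past both limits and lower, and without replicate 4 alone 2 and 1. What sets replicates 2 and 4 apart was not tested.

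**Figure D3:**
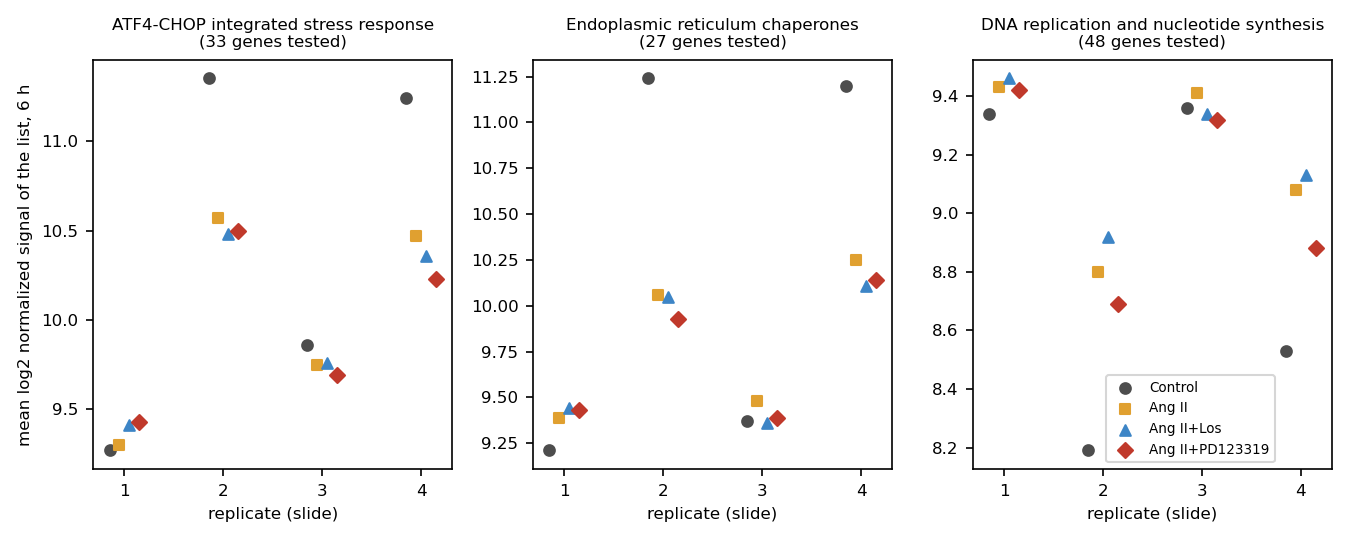
The mean log2 normalized signal of 3 gene lists on each of the 16 arrays at 6 h, by replicate (slide) and group. The Control arrays of replicates 2 and 4 stand above the treated arrays for the ATF4-CHOP and ER chaperone lists and below them for DNA replication, while in replicates 1 and 3 the 4 groups lie close together.

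The promoters of a few of these genes are shown because the members of both lists moved together. They are the 250 bases before the start of the gene in RefSeq on the GRCr8 assembly, written along the gene's strand. The capitals mark the ER stress element, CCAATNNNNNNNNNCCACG, in Hspa5 and, read on the other strand, in Creld2, and a C/EBP-ATF composite element, TGATGTAA read on the other strand, in Trib3. The windows are chr3:38452766-38453015 for Hspa5, chr7:121789134-121789383 for Creld2 and chr3:161275534-161275783 on the minus strand for Trib3.
Hspa5: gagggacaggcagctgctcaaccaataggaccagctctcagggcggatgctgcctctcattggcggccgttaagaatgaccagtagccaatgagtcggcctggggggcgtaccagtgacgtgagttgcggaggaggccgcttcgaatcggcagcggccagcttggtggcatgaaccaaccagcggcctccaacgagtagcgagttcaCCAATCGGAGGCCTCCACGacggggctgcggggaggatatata
Creld2: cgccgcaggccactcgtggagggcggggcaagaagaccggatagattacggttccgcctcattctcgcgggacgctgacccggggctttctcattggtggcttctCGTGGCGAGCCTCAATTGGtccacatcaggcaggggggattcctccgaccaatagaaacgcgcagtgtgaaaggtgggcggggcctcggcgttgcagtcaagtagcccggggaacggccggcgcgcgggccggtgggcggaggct
Trib3: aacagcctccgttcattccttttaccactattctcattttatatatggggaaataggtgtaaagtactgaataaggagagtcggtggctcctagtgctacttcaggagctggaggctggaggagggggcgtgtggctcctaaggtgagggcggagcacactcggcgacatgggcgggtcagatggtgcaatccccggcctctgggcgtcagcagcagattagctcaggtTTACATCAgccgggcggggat
On either strand, the whole ER stress element was found in 8 of 21 ER chaperone promoters in RefSeq (38.1%), in 0 of 35 of the ATF4-CHOP list and in 0.0765% of all 27457 promoters. The 8 genes were Hspa5, Hsp90b1, Calr, Canx, Dnajc3, Creld2, Derl3 and Xbp1. Of these, Derl3 was too dim to test, Hspa5, Calr, Dnajc3, Creld2 and Xbp1 were past both limits, and Hsp90b1 and Canx, at -0.44 and -0.05, were not. A composite element in 1 of the forms TGATGCAA, TGATGTAA and TGATGAAA was found in 9 of 35 ATF4-CHOP promoters (25.7%) and in 2.43% of all. These matches describe the letters of the windows and were not tested against the changes. The whole ER stress element was searched for after the values were seen.

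Heat shock genes and cytosolic chaperones, which are driven by HSF1 and fold proteins outside the ER, were mostly higher where they passed the limits. Of 34 genes tested, 6 were past both limits and higher and 1 was lower (20.6% in all, beside 13.5% of all genes), with a median of 0.07. Hsph1, the HSP110 co-chaperone that exchanges nucleotides on HSP70, rose from 7.30, 7.23, 7.74 and 7.24 to 7.85, 8.5, 8.24 and 8.58 without overlap between the groups. The log2 fold change was 0.91 (SE 0.18, adjusted p = 0.0408), a 1.88-fold rise, and without replicates 2 and 4 it was 0.53. Dnajb4, Hspa8, Dnaja1, Fkbp4 and Stip1 changed by 0.34, 0.30, 0.41, 0.29 and 0.37, and the inducible Hspa1b stood at 0.58 without passing the limits (limma unadjusted p = 0.0551). Hspa4, an HSP110 relative, changed by -0.39 (adjusted p = 0.0483), with no value on the Control array of replicate 2. The promoter of Hsph1, at chr12:10427118-10427367 of GRCr8, is shown with a heat shock element core, GAANNTTC, in capitals.
Hsph1: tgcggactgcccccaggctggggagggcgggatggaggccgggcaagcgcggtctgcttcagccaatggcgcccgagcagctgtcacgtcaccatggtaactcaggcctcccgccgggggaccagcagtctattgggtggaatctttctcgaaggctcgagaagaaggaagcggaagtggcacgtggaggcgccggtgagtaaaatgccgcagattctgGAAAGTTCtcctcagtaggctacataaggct
That core was found in 12 of 30 promoters of the list (40.0%) and in 7.02% of all promoters.

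Genes of DNA replication and of mitosis passed the limits upwards, with small changes, beside 7.07% of all genes. Of 48 genes of DNA replication and nucleotide synthesis, 9 (18.8%) were higher and 0 lower, with a median of 0.24, and they included Mcm4, a subunit of the replicative helicase (0.27), Gins2, its partner (0.49), Pola2, of DNA polymerase alpha (0.57), and Rrm1, of ribonucleotide reductase (0.34). Of 50 mitosis genes, 8 (16%) were higher and 0 lower, with a median of 0.17, among them the kinesin Kif2c (0.35), the condensin subunit Smc2 (0.46), Ccnb1, cyclin B1 (0.29), and Aurkb, Aurora kinase B (0.29). In limma 0 genes of either list had an adjusted p under 0.05, while 7 replication genes and 21 mitosis genes were higher on all 4 slides, as were 9.31% of all genes. The median of the replication genes was 0.02, 0.52, -0.08 and 0.43 in replicates 1 to 4, while that of the mitosis genes was 0.10, 0.31, 0.08 and 0.16. Without replicates 2 and 4, 3 replication genes and 7 mitosis genes were past both limits and higher, beside 853 of all 16441 genes.

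Of 31 DNA repair genes, 6 (19.4%) were past both limits and higher, beside 7.07% of all genes, and 0 lower. In all, 11 of the 31 had a change below 0, and 21 were lower in replicate 3. Chek2, a checkpoint kinase, had 6.01, 5.18, 5.96 and 5.60 in Control and 6.33, 5.73, 6.4 and 5.83 with treatment, higher on every slide (0.38, SE 0.08, adjusted p = 0.0483). Brca1 changed by 0.66 (adjusted p = 0.0858). Of 25 E2F factors and G1/S regulators, Rbl2, E2f8, Cdkn2c and Cdkn2d were past both limits and higher and Ccnd2, cyclin D2, lower at -0.35 (adjusted p = 0.0522). E2f1 and the cyclin genes Ccnd1, Ccne1 and Ccne2 were not past the limits, at 0.26, 0.11, 0.06 and 0.23. Among all genes, 7.07% were past both limits and higher and 6.39% lower. Ribosome biogenesis genes had a median of -0.20, with 31 of 34 below 0 and 11 lower on all 4 slides, as were 11.2% of all genes. Rrs1, Gnl3 and Rrp9 were the 3 past the limits (8.82% beside 13.5%). The median of the list was 0.02, -0.29, -0.11 and -0.39 in replicates 1 to 4.

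Cholesterol and fatty acid synthesis, the set of genes driven by SREBP factors, had 6 of 32 genes (18.8%) past both limits and higher, beside 7.07% of all genes, and 0 lower. The mean levels of the list were 9.12, 10.23, 10.91 and 10.33 in Control and 9.17, 10.48, 10.89 and 10.61 with treatment, and 15 and 22 of its genes were lower in replicates 1 and 3. Insig1, which holds SREBP in the ER when sterols are plentiful, had 8.26, 11.20, 11.16 and 11.01 in Control and 8.87, 11.41, 11.56 and 11.49 with treatment. It was higher on every slide, although replicate 1 was far below the other slides in both groups. The log2 fold change was 0.42 (SE 0.08, limma adjusted p = 0.0401). The synthase Hmgcs1 (0.41), Idi1 (0.37) and Dhcr7 (0.43) were past both limits with adjusted p-values between 0.0659 and 0.136.

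**Figure D4:**
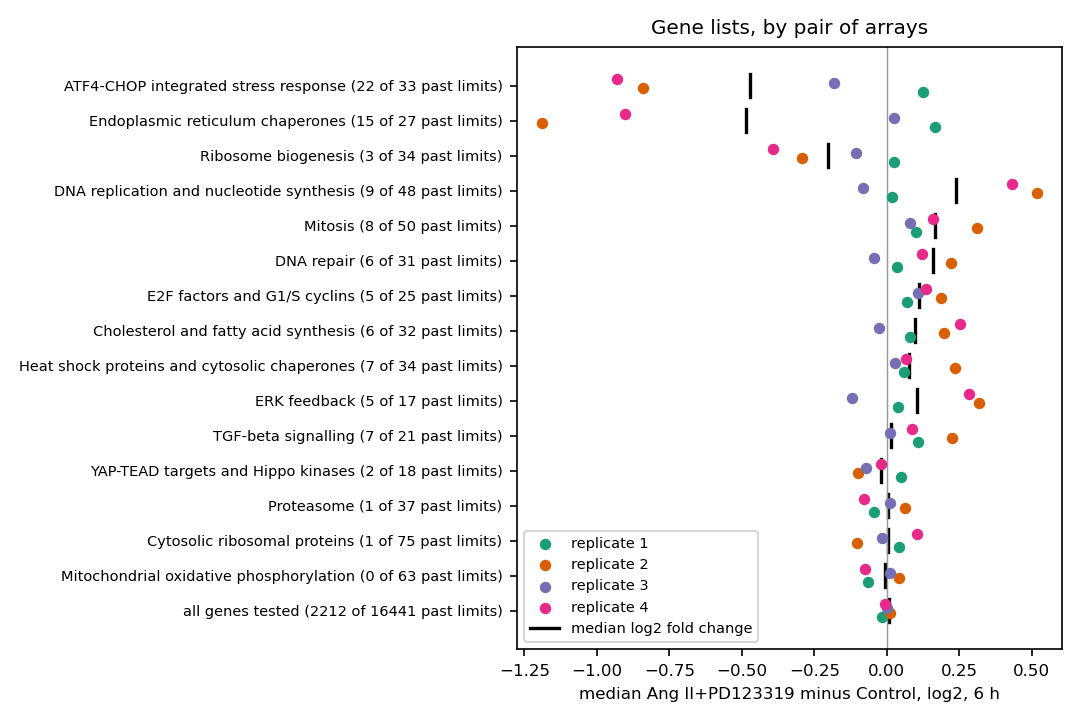
The median difference between Ang II+PD123319 and Control over the genes of 15 lists and over all genes, for each slide (coloured points) and as the median of the log2 fold changes (black bars). The ATF4-CHOP and ER chaperone lists lie far below 0 in replicates 2 and 4 and near 0 in replicates 1 and 3, and all genes lie at 0 on every slide.

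Of 20 genes of stress MAP kinases and calcineurin, 2 were past both limits (10% beside 13.5% of all genes), and 3 had an adjusted p under 0.05. Map2k6, the kinase kinase that activates p38, rose from 5.82, 4.88, 6.82 and 5.16 to 6.08, 6.18, 7.26 and 6.57 (0.85, SE 0.18, adjusted p = 0.0436). Of the p38 genes, Mapk12 was too dim and Mapk13 stood at 0.08. Mapk11, p38 beta, gave -0.55 (SE 0.10, adjusted p = 0.0352), and Mapk14, p38 alpha, gave -0.27 (SE 0.06, adjusted p = 0.0415), from between 11.87 and 12.20 to between 11.76 and 11.85 without overlap, but within the fold limit. Among 17 ERK feedback genes, 3 were past both limits and higher and 2 lower, which is 29.4% beside 13.5% of all genes. The ETS factor Etv1 rose by 0.54 (SE 0.11, adjusted p = 0.0415), and the phosphatase genes Dusp5 and Dusp4 were both at -0.43 with adjusted p-values of 0.0905 and 0.163. In replicate 1 Dusp5 and Dusp4 were higher with treatment, by 0.09 and 0.23.

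Single members changed in other lists. In the hypoxia list, Ndrg1 rose by 0.42 without overlap between the groups and Slc16a3, a lactate exporter, fell by 0.64, both with an adjusted p of 0.0468. In the list of splicing factors, Srsf5 changed by -0.45 (adjusted p = 0.0406) and Snrpf, a core small nuclear ribonucleoprotein, by -0.43 (adjusted p = 0.0481). Of 29 genes of receptor and G protein signalling, 4 were past both limits, beside 13.5% of all genes. The largest of these changes was that of Rgs16, which shortens signalling by G protein-coupled receptors, at -0.76 (adjusted p = 0.0522). Rgs16 was dim, and was well above background on 3 of the 4 Ang II+PD123319 arrays. In the NADPH oxidase list Ncf4, a cytosolic subunit, changed by -1.29 (adjusted p = 0.0592) and Noxa1 by -0.51 (adjusted p = 0.125). Some lists had few or no genes past both limits, beside 13.5% of all genes. These were oxidative phosphorylation (0 of 63), Wnt signalling (0 of 20) and the EGF receptor family (0 of 7). The others were cytosolic ribosomal proteins (1 of 75), the proteasome (1 of 37) and the contractile cytoskeleton (1 of 38). In the EGF receptor list Egfr, Erbb4, Ereg, Btc and Nrg2 were too dim to test, so 0 of 7 says little. The proteasome list was bright, with mean Control levels of 11.59 to 11.84. Among the 4110 brightest genes 6.72% were past both limits.

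Besides the receptor genes, the study assayed 10 genes by qPCR. These 10 genes were chosen on samples of this series, so that their counts are not independent evidence. On the arrays, Aqp2, Ctgf and Lamb1 were past both limits in Ang II+PD123319 x Control, all lower. Lamb1, a laminin chain, had 10.17, 12.03, 10.98 and 11.96 in Control and 10.02, 10.83, 10.91 and 11.05 with treatment (-0.59, adjusted p = 0.132), with most of the change in replicates 2 and 4. The others were not past the limits, with log2 fold changes of -0.31 for Vegfa, -0.24 for Nlrp3, which was well above background on 2 Control arrays and 1 Ang II+PD123319 array, -0.15 for Bcar1, -0.11 for Prkca, 0.01 for Agtrap, and 0.02 for Map2k4 and Hbegf.

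Markers of the cell types were read to check the label. Of the astrocyte and glioma markers 7 of 10 were tested, among them S100b, Vim, Nes and Cd44, while Gfap, the defining marker of astrocytes, and Slc1a3 and Slc1a2 were too dim. The oligodendrocyte lineage factors Sox10 and Pdgfra were bright, at 10.19 to 11.46 and 10.33 to 10.93 on the 8 arrays. Neuronal, microglial, endothelial and fibroblast markers could be tested in 3 of 7, 5 of 6, 2 of 5 and 4 of 6 cases, with Rbfox3, Ptprc, Pecam1 and Dcn too dim. Over the 6 marker lists, Aqp4, Olig1, Cnp, Tubb3 and Aif1 were the 5 of 27 tested genes past both limits (18.5% beside 13.5% of all genes), and of these Olig1 had an adjusted p under 0.05. Aqp4 stood at 0.035 when no filter was set.

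To see how far the changes differ from those in cells given Ang II without an antagonist, the 6 h arrays of Ang II+PD123319 and of Ang II alone were also set against each other. Between these groups 623 of 16441 genes (3.79%) were past both limits, 423 (2.57%) higher and 200 (1.22%) lower with PD123319, and 1047 had an unadjusted p under 0.05. After adjustment limma gave 0 genes, with a lowest adjusted p of 0.382, and the paired and unpaired t-tests also gave 0. The values against Control are given side by side with those of Ang II x Control and of Ang II+Los x Control, Los being the AT1 antagonist Losartan, and all 3 comparisons share the 4 Control arrays. For Ctgf they were -0.65, -0.21 and -0.46. The direct difference of Ctgf from Ang II was -0.45 (limma unadjusted p = 0.00433). For Crim1 the values were -0.60, -0.30 and -0.48 with a direct difference of -0.30 (limma unadjusted p = 0.00439).

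Dusp5 was near 0 without PD123319. Its values against Control were -0.43 in Ang II+PD123319, -0.01 in Ang II and -0.07 in Ang II+Los, and the direct difference from Ang II was -0.41 (limma unadjusted p = 0.00676). On the single slides Dusp5 in Ang II+PD123319 differed from Control by 0.09, -0.59, -0.31 and -0.88 in replicates 1 to 4. Without replicates 2 and 4 that change was -0.114 (limma unadjusted p = 0.417). Snrpf gave -0.43, 0.07 and -0.19 with a direct difference of -0.50 (limma unadjusted p = 0.000177). Tgfbi gave 0.46, 0.17 and 0.02 with a direct difference of 0.29 (limma unadjusted p = 0.0147). Hbegf, a ligand of the EGF receptor, was within the limits against Control but differed from Ang II by -0.43 (limma unadjusted p = 0.00976). By contrast the 3 treatments gave close values for other genes. Hsph1 stood at 0.91, 1.04 and 0.98, Insig1 at 0.42, 0.45 and 0.40, Socs1 at 0.64, 0.60 and 0.66, Inhba at -0.63, -0.56 and -0.61 and Ddit3 at -1.19, -1.16 and -1.20. For these 5 genes the direct differences lay between -0.12 and 0.04. Of the ATF4-CHOP and ER chaperone genes, 0 were past both limits between Ang II+PD123319 and Ang II.

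**Figure D5:**
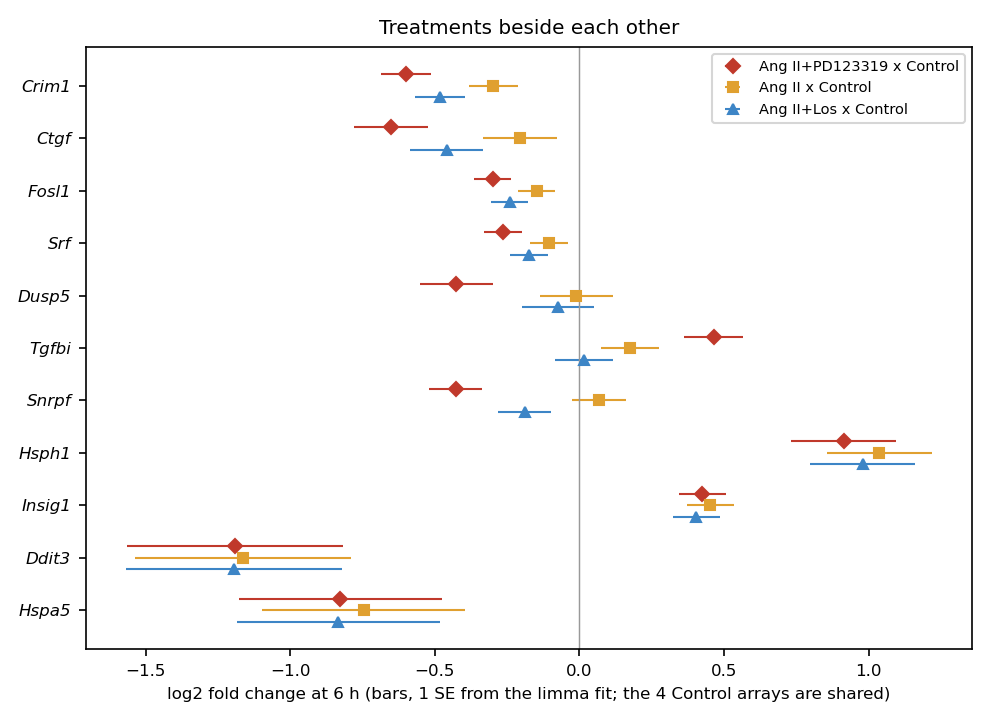
Log2 fold changes against the shared Control arrays at 6 h for 11 genes in Ang II+PD123319, Ang II and Ang II+Los, with bars of 1 SE from the limma fit. Crim1, Ctgf, Dusp5 and Snrpf are lowest in Ang II+PD123319, while Hsph1, Insig1, Ddit3 and Hspa5 have close values in the 3 treatments.

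The same comparison at 3 h used other arrays. There 827 of 13628 genes (6.07%) were past both limits, 352 (2.58%) higher and 475 (3.49%) lower, and 1032 had an unadjusted p under 0.05 with 0 after adjustment in limma. The median standard error over genes was 0.16 at 3 h and 0.10 at 6 h, so the counts at the 2 times differ in precision. Of the genes tested at both times, 204 were past both limits at both, which is 13.3% of the 1539 at 6 h and 24.7% of the 826 at 3 h, and 196 of them changed in the same direction. Ctgf had a log2 fold change of -0.67 at 3 h, Crim1 of -0.41, Fosl1 of -0.48 and Socs1 of 0.70, all with an unadjusted p under 0.05 there. Aqp2 was at -0.06 and Hsph1 at 0.24 at 3 h. Of the ATF4-CHOP list 10 of 31 genes and of the ER chaperones 7 of 25 were past both limits at 3 h, with medians of -0.34 and -0.30, beside 6.07% of all genes past the limits. Ddit3, Trib3 and Herpud1 were at -2.23, -2.29 and -1.94, while Hspa5, Creld2, Manf and Pdia4 were at -0.37, -0.35, -0.22 and -0.08. The difference between 6 h and 3 h was tested directly over 13615 genes, and 0 had an adjusted p under 0.05 in limma (lowest 0.435), with 823 at an unadjusted p under 0.05.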

How the data were processed

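RNA of C6 cells was hybridized by the authors to Agilent rat arrays with a single dye, and the scanner software (Feature Extraction 9.5.3.1, per the file headers) gave a background-subtracted intensity per spot. The authors also deposited log2 values of that intensity, equal to it in 100% of 561803 values compared, with 38.2% blank and no scaling between arrays. The scanner intensity was used here. For dim spots the software had treated the 2 times differently. At 6 h it gave spots not significantly above background the error of the signal, and the same was done here for such spots at 3 h. Outlier-flagged spots were dropped, spots of a probe averaged, and log2 values were normalized among the 16 arrays at 6 h by cyclic loess (3 iterations, span 0.7). Probes had to be well above background in every array of some group, with at most 2 gaps, and those of a gene were centred before averaging. Coordinates of probes are on rn4 (RGSCv3.4), per the file headers. Promoters come from RefSeq (GRCr8).

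The comparisons were fitted by limma 3.58.1 in R 4.3.3 to all 16 arrays of a time, with a block for the replicate number and Benjamini-Hochberg adjustment over all genes tested. The number is that of the slide, and the deviations of same-numbered Control and Ang II+PD123319 arrays from their group means correlated at 0.55 to 0.69 over 16386 genes, so that the numbers pair the samples. The paired t-test is the one the series record names. Named genes are the 10 highest, the 10 lowest and the 10 lowest p-values among genes with a symbol, the same direction in 4 pairs and a signal on all 8 arrays, up to 4 members of each list with the lowest p, and the qPCR genes. Members named beyond these, among them Atf4, Creld2, Hspa5, Hspa1b, Herpud1, Manf, Pdia4, Tgfbr1, Xbp1 and those given with a change alone, were chosen after their values were seen. The comparison, the lists and the rules were chosen with earlier results of these data known. Of 1161 names in the lists, 40 were not found and 95 were too dim. A few genes are not reported here. The fit was tested on simulated data with known changes.

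The alternatives tried were no replicate block, paired and unpaired t-tests, scaling to the 75th percentile, quantile normalization, normexp background (offset 50), both a stricter filter and no filter, single probes, the 8 arrays alone, the deposited log2 values, other fold limits and each replicate left out. The setting without replicates 2 and 4 was added after seeing the data. Precision is limited by how many arrays there are, with a median standard error over genes of 0.10 at 6 h and 0.16 at 3 h. The fold limits are those used for other comparisons of the series.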

Additional observations from a re-analysis of the deposited data

Results flagged for a closer look

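Among 156 groups of 4 arrays of the named genes, 7 had 1 array far from the other 3, by a gap above the 95% limit of Dixon's test, and chance gives about 1 in 20. In replicate 1, Insig1 was at 8.26 on the Control array and at 8.87 on the Ang II+PD123319 array, far below the other slides in both groups. Bcar1 stood at 10.92 on the Control array of replicate 1, above the others. Hsph1 was at 7.74 on the Control array of replicate 3, the highest of that group and still below every Ang II+PD123319 array. Kcna1 was at 7.31 on the Control array of replicate 1 and at 6.37 on the Ang II+PD123319 array of replicate 3, with differences of 0.04 and 0.23 on those slides and larger ones on the others. Lrrc10b was at 4.71 on the Control array of replicate 1, the lowest of its group.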

How the results depend on the processing

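The 2212 genes past both limits became 755 without the replicate block, 655 with a paired and 376 with an unpaired t-test, 986 with normexp background, 1419 with the deposited values, 3768 without the fold limit and 1450 without replicates 2 and 4, a setting chosen after seeing the data. The 227 adjusted calls became 0 without the replicate block, with either t-test, with the 8 arrays alone and without replicates 2 and 4, but 124 with normexp, 373 with the stricter filter and 5 without a filter. Of the 227 genes, 118 to 227 kept an unadjusted p under 0.05 in the same direction in these settings, with 143 for the deposited values, where fewer genes were tested. The genes were selected on the same arrays, so this is not independent support. With 1 replicate number left out, the genes past both limits ranged from 1313 (without replicate 4) to 3121 and the adjusted calls from 0 (without replicate 4) and 1 (without replicate 2) to 412 (without replicate 1). The share of higher genes among those past both limits was 52.5%, 57.7% with scaling to the 75th percentile and 40.1% without the block.

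Of the members of all lists, 147 were past both limits. This became 32 without the block, 42 and 12 with the paired and unpaired t-tests, 95 with the 8 arrays alone, 86 without replicates 2 and 4, and 73 to 207 with 1 replicate left out, lowest without replicate 4 and 83 without replicate 2. The 22 lower ATF4-CHOP genes became 3 without the block, 1 and 0 with the paired and unpaired t-tests, 11 with the 8 arrays alone and with the deposited values, and 2 to 28 with 1 replicate left out. The 15 lower ER chaperones became 2, 0, 0, 4 and 9 in the same order of settings, and 1 to 21 with 1 replicate left out. Both numbers were 0 without replicates 2 and 4.

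For Ang II+PD123319 against Ang II, the 623 genes became 112 without the block, 285 and 84 with the paired and unpaired t-tests, 157 with normexp, 1276 without a filter, 389 with the deposited values, 322 without replicates 2 and 4, and 334 (without replicate 4) to 1038 (without replicate 1). The difference between the times had 2 adjusted calls without replicate 1 and 0 otherwise.

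Of 206 named genes, 8 changed sign in 1 setting. Without replicates 2 and 4 these were Spry4 (-0.009), Hmox1 (0.073), Herpud1 (0.041), Hspa5 (0.135), Creld2 (0.036), Manf (0.219) and Pdia4 (0.788), and without a filter Aqp4 (0.035). The causes were not tested, other than the fewer arrays or genes that these settings use by construction. In the same setting without replicates 2 and 4, Crim1 stood at -0.62, Socs1 at 0.438, Aqp2 at -0.646 and Ctgf at -0.34, with an unadjusted limma p of 0.00879, 0.00808, 0.00283 and 0.0403. Dim genes, with a signal near background, limit what can be said of the receptors.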

Other observations

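The circadian clock list, not described above as a group, had 5 of 17 genes past both limits (29.4% against 13.5% of all genes), 3 higher and 2 lower. Arntl2 gave 4.63, 2.78, 5.05 and 4.07 on the Control arrays of replicates 1 to 4 and 5.22, 4.5, 5.67 and 5.02 with Ang II+PD123319. Cry1, a repressor of the clock, gave 8.45, 9.06, 8.54 and 8.96 against 8.44, 8.14, 8.39 and 8.01, with the change in replicates 2 and 4. Rora, an activator of the clock, changed by -0.44 against Control (adjusted p = 0.107) and by -0.47 against Ang II (limma unadjusted p = 0.00545). It is among the 5 genes, but it was well above background on 4 Control arrays and on only 1 Ang II+PD123319 array. Its level with treatment is therefore near background, and the size of its fall is uncertain.

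Matrix metalloproteinase genes went in different directions. Mmp11 changed by 0.52 (adjusted p = 0.0522), Mmp2 by 0.59 (adjusted p = 0.0948) and Mmp13 by -0.57 (adjusted p = 0.119). Of 21 genes of NF-kB, the inflammasome and chemokines, 3 were past both limits and higher (14.3% beside 13.5% of all genes). Ccl7 differed by 0.01, 1.15, 0.01 and 0.85 in replicates 1 to 4 and stood at 0.011 without replicates 2 and 4, and Ccl2 differed by -0.16, 0.99, 0.03 and 0.91. The chemokines Cxcl1, Cxcl12, Cxcl10 and Cx3cl1 were not past the limits, at 0.06, 0.07, -0.24 and -0.75. The antioxidant gene Nqo1 changed by 0.32 on average, from between 13.16 and 13.74 to between 13.64 and 14.03.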
